A study of Mus musculus with 7 samples.

Results

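Early transient regions are stretches of the mouse genome that were called open during the first days of cellular reprogramming and at no other time-point analysed. They were chosen by the authors' ATAC-seq peak calls themselves. Touching or overlapping peaks of all 7 libraries were merged into 104346 regions. A region was a member when it held peaks of 2 or more of the day 1, day 2 and day 3 libraries and none of the day 0, day 6, day 9 or embryonic stem cell (ESC) library. The rule gave 3191 members, 3.06% of all merged regions. Peaks of 2 or more of these 3 days were found in 35684 regions, of which the members made up 8.94%. The presence and absence of peaks in the 7 libraries is therefore a description of the members and not a result.

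The fibroblasts (MEFs) came from a cross of B6;129S4 mice with the Col1a1tm1 allele of Hoch, a tetO-driven cassette of Pou5f1 (Oct4), Klf4, Sox2 and Myc in the collagen locus, to B6.Cg mice with the rtTA*M2 transactivator of Jae in the ROSA26 locus. Doxycycline switches on the 4 factors (OSKM) in cells that carry both alleles. Doxycycline at 2 µg/mL was present for 1, 2, 3, 6 or 9 days, and the day 0 MEFs and the ESCs received none. By the paper's protocol, doxycycline was given in MEF medium with a higher share of serum. ESC medium replaced it once early colonies appeared, so serum and medium changed along the time course too. The cassette is thus shared by all 6 MEF libraries, day 0 included, and no library of MEFs that lack it but received doxycycline was analysed here. The ESCs are Bruce-4 cells by their culture protocol, but their label lists the same cross as the MEFs. Each library is a bulk population, in which a site open in few cells and a site weakly open in many cannot be told apart. Each time-point has 1 library, so there was no test between time-points, and the intervals below are exact binomial 95% intervals that cover counting error over regions alone.

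Open chromatin marks promoters and enhancers, where transcription factors displace or contact nucleosomes. Oct4 and Sox2 are known to bind nucleosomal DNA at a joint Oct-Sox element, and Klf4 binds GC-rich CACCC-type sites. AP-1 is a dimer of Jun and Fos family proteins that occupies many fibroblast enhancers, and Runx proteins often share such elements. During reprogramming, fibroblast enhancers are lost, pluripotency enhancers are gained, and some sites open for a short time and close again.

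The sequences of members that hold several of the searched motifs show what such sites look like. Of the 781 members with a peak on all of days 1, 2 and 3 considered for printing, 1 held 3 different motifs among Klf, Sox, Oct, Oct-Sox and AP-1, and 54 held 2. The 4 lines that follow give the 200 bp around the centre of that member and of 3 of the widest with 2 motifs, 5′ to 3′ on the plus strand of GRCm38 (mm10), with the matches in capitals. They are named by the nearest transcription start site (TSS) of a protein-coding gene.
Scnn1a intron, chr6:125328387-125328586: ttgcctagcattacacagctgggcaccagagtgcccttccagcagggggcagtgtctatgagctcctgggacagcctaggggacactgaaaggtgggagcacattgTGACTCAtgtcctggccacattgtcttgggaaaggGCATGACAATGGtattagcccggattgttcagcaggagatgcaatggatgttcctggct
Mms22l intron, chr4:24531203-24531402: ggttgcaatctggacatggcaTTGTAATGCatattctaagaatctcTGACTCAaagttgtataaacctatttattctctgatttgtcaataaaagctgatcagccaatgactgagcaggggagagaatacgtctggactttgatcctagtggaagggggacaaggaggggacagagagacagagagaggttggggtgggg
A730049H05Rik, in an intron of Adamts9, chr6:92811603-92811802: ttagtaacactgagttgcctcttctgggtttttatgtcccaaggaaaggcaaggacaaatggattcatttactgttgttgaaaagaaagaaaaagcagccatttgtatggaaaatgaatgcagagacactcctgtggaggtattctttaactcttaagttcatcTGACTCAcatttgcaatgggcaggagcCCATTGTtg
Gtdc1, intergenic, chr2:44558304-44558503: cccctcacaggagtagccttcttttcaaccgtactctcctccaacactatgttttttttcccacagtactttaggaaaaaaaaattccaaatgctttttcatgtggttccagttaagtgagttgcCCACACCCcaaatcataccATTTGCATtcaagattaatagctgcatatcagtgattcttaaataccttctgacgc

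The Scnn1a site lies in a gene for a subunit of the epithelial sodium channel, 6676 bp from its TSS. It holds an AP-1 match (TGACTCA, bases 107 to 113 of the window) and a Sox match (ACAATGG, bases 147 to 153) that overlaps the Oct-Sox match (GCATGACAA, bases 142 to 150). The region was 581 bp wide, with 311 bp, 245 bp and 439 bp under the peaks of days 1, 2 and 3, and the nearest peak of any of the 4 other libraries was 2088 bp away. The Mms22l site, in a gene for a factor of replication-fork repair, pairs an Oct-Sox match (TTGTAATGC) with an AP-1 match, and its peaks were 752 bp, 750 bp and 499 bp wide on days 1, 2 and 3. In the Adamts9 intron, an AP-1 match stands 20 bases before a Sox match (CCATTGT). AP-1 was thus found beside a Sox or Oct-Sox match in 3 of these 4 windows, which were picked for the number of motifs they hold.

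Among the 4 possible combinations of days, peaks on days 1 and 3 without day 2 were the most frequent. This pattern held 1456 members (45.6%), against 803 (25.2%) with a peak on all 3 days, 529 (16.6%) with days 1 and 2 and 403 (12.6%) with days 2 and 3. Day 1 peaks were present in 2788 members (87.4%), day 3 peaks in 2662 (83.4%) and day 2 peaks in 1735 (54.4%). The day 2 list was also the shortest of the early lists, with 33174 peaks against 45709 on day 1 and 48087 on day 3. When each library was cut to its 27074 widest peaks, the number in the ESC list, the order changed. Of the 2268 members then found, 28.6% had peaks on days 1 and 2, 26.1% on all 3 days, 25.3% on days 1 and 3 and 20.0% on days 2 and 3. The cut also removed peaks of days 0, 6 and 9, so regions barred by such peaks in the full lists could become members. The excess of regions that skip day 2 in the full lists was therefore not seen with lists of equal length, the one other setting in which the patterns were counted.

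**Figure D1:**
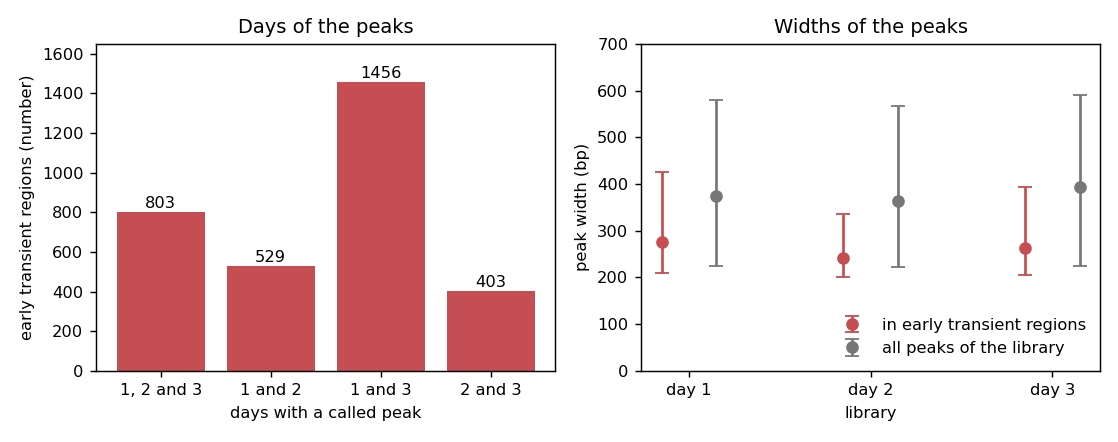
Left, number of early transient regions by the days on which a peak was called (bars). Right, width in bp of the called peaks on days 1, 2 and 3, as the median (point) and the quartiles (bars), for peaks in early transient regions and for all peaks of the library. The days 1 and 3 pattern held 1456 regions, and the peaks in early transient regions were narrower than those of the whole library on each day.

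The peaks that formed these regions were narrow. Their median width was 275 bp, 242 bp and 264 bp on days 1, 2 and 3, against 375 bp, 364 bp and 394 bp for all peaks of the same libraries. The smallest peak in each list was 200 bp wide, and 19.7% of the day 1, 27.6% of the day 2 and 21.4% of the day 3 peaks in members were of that width, against 14.9%, 15.6% and 14.3% of all peaks. The smallest listed width was thus more frequent among the peaks in members than among all peaks. The lists give no score by which weaker and stronger peaks could be told apart. After merging, the median width of a member was 443 bp (quartiles 310 and 540 bp). Regions seen on 1 of days 1 to 3 alone, which number 11718, had a median of 209 bp, the 646 late transient regions with a peak on days 6 and 9 alone had 373.5 bp, and the 2959 regions open on each doxycycline day but neither on day 0 nor in ESCs had 671 bp. Just outside the rule, regions with at least 2 early days plus a peak on day 0 alone (2150 regions) had a median of 580 bp, those with day 6 added (2167) 550 bp, with day 9 added (548) 524.5 bp and with ESCs added (173) 575 bp. Just inside it, members of exactly 2 days had 393 bp and members of all 3 days 549 bp. A merged region spans all its peaks, so its width tends to grow with the number of libraries its class requires. The order of these medians is therefore partly set by how the classes were defined, and it is a description.

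Merging touching peaks fixes that the peaks of different days overlap in nearly all members, and the overlap was 100 bp or more in 2875 (90.1%). In the 803 members of all 3 days, the median peak width on days 1, 2 and 3 was 403 bp, 290 bp and 343 bp. The day 1 peak was the single widest in 377 of them, the day 3 peak in 275 and the day 2 peak in 145.

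The widest members of all 3 days were mostly far from promoters, as members of all 3 days were in general. Of the latter, 8.34% lay within 1000 bp of a TSS. The widest was a 1246 bp region in an intron of Hdac4, a class IIa histone deacetylase, 4187 bp from a TSS (chr1:92142961-92144206), with 799 bp, 839 bp and 814 bp under peaks on days 1, 2 and 3. Of the following 9, a 1005 bp region lay 485410 bp from the TSS of Nectin3, a cell adhesion gene, with 909 bp, 200 bp and 712 bp under peaks. A 980 bp region inside Supt3 had Runx2, the regulator of bone formation, as its nearest protein-coding TSS at 303872 bp, with 891 bp, 438 bp and 823 bp. The region nearest to Kcnj2, a potassium channel gene, was 933 bp wide and held an AP-1 match. The others were nearest to Akirin2, Agtpbp1, Prok2, Mrpl19, Sgcd and Faf2, with widths from 911 down to 871 bp. The Prok2 region began 24 bp from a peak of another library, whereas the other 9 were between 978 and 100605 bp away from one.

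Early transient regions were less often close to a TSS than open regions in general, and more often in introns. A TSS lay within 1000 bp of 299 members, 9.37% (8.38 to 10.4), against 21.9% (21.6 to 22.1) of all merged regions. The regions open on each doxycycline day had a like share, 9.94% (8.89 to 11.1), and the late transient regions 12.8% (10.4 to 15.7). Introns held 50.3% of members against 39.8% of all merged regions, whereas intergenic sequence (37.0% and 35.1%) and exons (3.32% and 3.17%) held like shares of both. The median distance to a TSS was 12485 bp. The mean GC content of the central 200 bp was 44.6% ± 7.15 (SD over 3190 windows), against 50.0% ± 10.1 in all merged regions and 43.6% in windows 1000 bp to either side of the members. Repeats masked at least 50% of the window in 8.50% of members and in 9.95% of all regions.

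Few members lay close to one another. Of the 3191, 3032 had no other member within 10 kb, 78 pairs lay that close, and a single group of 3 was near Ralyl, which encodes an RNA-binding protein. The nearest day 0 peak was at a median of 9926 bp, the nearest day 6 peak at 14363 bp, the nearest day 9 peak at 20495 bp and the nearest ESC peak at 29789 bp, in the order of the number of peaks on day 0, day 6, day 9 and in ESCs. Over these 4 libraries together the nearest peak was at a median of 6161 bp. A peak of one of them lay within 5000 bp of 1412 members (44.2%), within 500 bp of 412 (12.9%) and within 100 bp of 220 (6.89%), where the rule itself bars touching peaks. Members made up between 2.43% (chromosome 17) and 3.62% (chromosome 13) of the regions of an autosome, 2.73% of those on the X chromosome and none of the 4 regions on the Y chromosome.

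AP-1 was the motif found most often in early transient regions, as it was in all merged regions. Late transient regions held it less often. Each of 16 short motifs was searched on both strands in the central 200 bp. The AP-1 letters TGAGTCA were found in 14.2% of 3190 windows (13.0 to 15.4), in 3.48% (3.04 to 3.96) of the windows 1000 bp away, and in 4.33% (2.90 to 6.20) of the 646 late transient regions. The interval of the members thus lies above that of the late transient regions, with a share 3.27 times as high. The AP-1 share was 10.2% (9.14 to 11.4) in regions open on each doxycycline day, 7.91% (7.43 to 8.41) in regions of a single early day and 12.3% (12.1 to 12.5) in all merged regions. In the 24920 regions of day 0 alone it was 16.4% (16.0 to 16.9) and in the 10159 regions of ESCs alone 2.78% (2.47 to 3.11). The share of early transient regions was hence closer to that of regions of day 0 alone than to that of regions of ESCs alone. Their excess over all merged regions was small, and the share fell below 12.3% with the window placed at the centre of the stretch that most of the days share (10.4%), for which all merged regions were not recomputed. With that window the late transient regions had 3.41%, so early transient regions had 3.05 times as high a share.

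The AP-1 share over all peaks of a library also fell with time. From 15.4% on day 0 it changed to 11.6%, 9.57% and 11.1% on days 1, 2 and 3, to 8.54% and 7.32% on days 6 and 9 and to 3.92% in the ESC library. The peaks on which the early and the late regions rest thus differ in this motif as whole lists too. With windows at the centre of merged regions, early transient regions (14.2%) lay above each list of days 1 to 3. The windows of the lists were instead centred on single peaks. At the centre of the shared stretch early transient regions had 10.4%, above day 2 but below days 1 and 3. Late transient regions lay below the lists of days 6 and 9 with both windows.

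The AP-1 matches were concentrated at the centre of the regions. In the 50 bp bins on either side of the centre, early transient regions held 0.790 and 0.828 matches per kb, against 0.182 and 0.163 in the outermost bins, 975 bp away. Late transient regions held 0.248 and 0.186 in the central bins, from 8 and 6 matches. Sox matches had a similar shape in early transient regions, with 0.489 and 0.470 per kb at the centre and 0.144 at both ends.

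**Figure D2:**
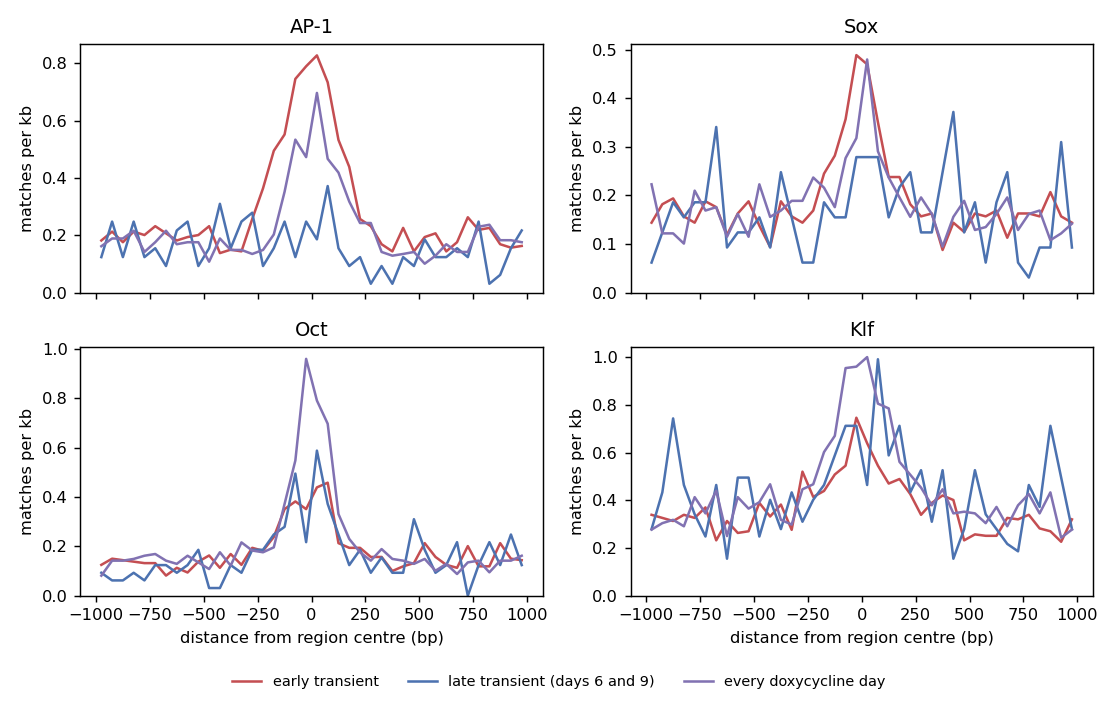
Matches per kb (y axis) of the AP-1, Sox, Oct and Klf motifs against the distance from the region's centre in bp (x axis, 50 bp bins), in early transient regions (red), late transient regions of days 6 and 9 (blue) and regions open on each doxycycline day (purple). AP-1 reached 0.828 per kb at the centre of early transient regions and 0.697 in regions open on each doxycycline day, with no such rise in the late transient regions, whose line rests on few matches per bin.

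Early and late transient regions also differed in GC content (means of 44.6% and 48.4%), so AP-1 was compared within classes of GC content. Within windows of 45 to 50% GC, AP-1 was found in 17.5% (14.9 to 20.4) of 758 early and 5.00% (2.31 to 9.28) of 180 late transient regions. In windows under 40% GC the shares were 13.0% (10.8 to 15.5) and 3.53% (0.734 to 9.97), and in those of 50 to 55% GC they were 11.8% (9.02 to 15.2) and 2.33% (0.482 to 6.65). At 55% GC or more the intervals overlapped, with 7.82% (4.77 to 11.9) and 4.07% (1.33 to 9.23). Between early transient and all merged regions, the AP-1 intervals overlapped in each GC class. All merged regions had 16.0% (15.5 to 16.5) at 45 to 50% GC, below early transient regions. At 50 to 55% GC they had 14.1% (13.6 to 14.6), above early transient regions.

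**Figure D3:**
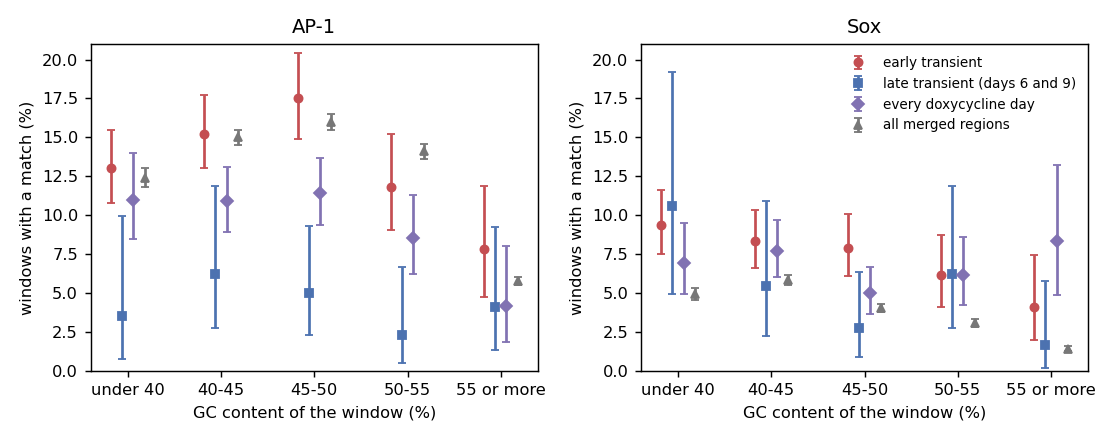
Share of 200 bp windows with an AP-1 (left) or a Sox match (right), in percent, by the GC content of the window, with exact 95% intervals (bars). AP-1 was higher in early (red circles) than in late transient regions (blue squares) in each GC class, 17.5% against 5.00% at 45 to 50% GC, with overlapping intervals at 55% GC or more. Sox was higher in early transient regions than in all merged regions (grey triangles) in each class.

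The binding motif of Runx factors, AACCACA, was also more frequent in early than in late transient regions. It was present in 7.46% (6.57 to 8.43) of early transient and 2.48% (1.42 to 3.99) of late transient regions, with 5.42% (5.29 to 5.56) in all merged regions and 6.69% in regions of day 0 alone. Regions open on each doxycycline day had 6.49% (5.63 to 7.44), an interval that overlaps that of early transient regions. The flanks of early transient regions had 4.91% (4.39 to 5.47). Late transient regions lay below their own flanks, which had 4.41% (3.36 to 5.68), though these intervals overlap. Motifs of other factors were more frequent in the late transient regions. Shares of Runx and of these motifs were not compared within classes of GC content, although GC content differed between early and late transient regions. The half-site of the Nfi family, CTTGGCA, was found in 9.91% (7.71 to 12.5) of late and 4.39% (3.70 to 5.16) of early transient regions. For Tead factors, which act with the Hippo pathway, the shares of ACATTCC were 7.12% (5.26 to 9.38) and 4.26% (3.59 to 5.02), for the Tfap2 motif GCCNNNGGC 8.20% (6.21 to 10.6) and 4.39% (3.70 to 5.16), and for the CTCF core CCAGNNGGC 7.28% (5.39 to 9.56) and 3.51% (2.90 to 4.21).

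Sox matches were more frequent in early transient regions than in all merged regions. The letters CCATTGT were found in 7.87% (6.96 to 8.86) of members, 2.98% (2.58 to 3.43) of their flanks and 3.65% (3.54 to 3.76) of all merged regions, and they were above all merged regions in each class of GC content, for example 7.92% (6.09 to 10.1) against 4.03% (3.78 to 4.28) at 45 to 50% GC. Regions open on each doxycycline day had 6.56% (5.69 to 7.51), an interval that overlaps that of the members. Regions of ESCs alone had 6.38% (5.91 to 6.87) and late transient regions 4.80% (3.28 to 6.74). The Oct octamer ATGCNAAT was in 7.21% (6.34 to 8.16) of members, above the 4.23% (4.11 to 4.36) of all merged regions and below the 13.3% (12.1 to 14.6) of regions open on each doxycycline day. Within classes of GC content the Oct share was above that of all merged regions under 40% GC, with 11.1% (9.03 to 13.4) against 7.77% (7.33 to 8.22), and alike at 50 to 55% GC, with 3.07% (1.69 to 5.10) against 3.10% (2.86 to 3.35). The intervals also overlapped at 40 to 45% and 45 to 50% GC, and at 55% GC or more, with 2.88% (1.17 to 5.84) against 1.14% (1.02 to 1.28). The joint Oct-Sox element TTGTNATGC, whose first letters overlap the end of the Sox motif, was rare, with 1.69% (1.27 to 2.20) of members, 0.486% (0.330 to 0.689) of flanks and 2.57% (2.03 to 3.21) of regions open on each doxycycline day.

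Klf matches, GGGNGTGG, were found in 10.6% (9.58 to 11.7) of members, against 10.2% (10.0 to 10.4) of all merged regions and 5.66% (5.10 to 6.25) of flanks. The members are lower in GC content than all merged regions, and within classes of GC content their Klf share was higher. It was 5.73% (4.24 to 7.55) against 3.11% (2.83 to 3.42) under 40% GC and 15.3% (12.8 to 18.1) against 9.50% (9.13 to 9.87) at 45 to 50% GC, while the intervals overlapped in the other 3 classes. Regions open on each doxycycline day held more, 16.1% (14.8 to 17.5). The E-box CACGTG, which Myc and many other proteins bind, was present in 1.82% (1.38 to 2.34) of members against 3.30% (3.20 to 3.41) of all regions. Its share was 2.34% (1.98 to 2.74) in flanks, 2.27% (1.76 to 2.87) in regions open on each doxycycline day and 2.40% (2.13 to 2.69) in regions of a single early day. These intervals overlap that of the members. The Ets motif CCGGAAGT, common at promoters, was in 5 of 3190 windows, 0.157% (0.0509 to 0.365), against 0.869% (0.814 to 0.927) of all regions and 0.110% (0.0441 to 0.226) of flanks. Neither motif was compared within classes of GC content. Cebp matches, TTGCNNAA, were in 11.5% (10.4 to 12.7) of members and 8.23% (7.57 to 8.93) of flanks. The Esrrb motif CAAGGTCA (1.13%), the motif of the blood and endoderm factors of the Gata family, AGATAAG (1.82%), and the Grhl motif AACNGGTT (1.29%) were not above the flanks, which had 1.43%, 2.54% and 1.44%. Of the members, 511 (16.0%) held a Sox, Oct or Oct-Sox match and 2050 (64.3%) held none of these, Klf or AP-1. AP-1 and Sox stood in the same window in 38 members (1.19%).

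**Figure D4:**
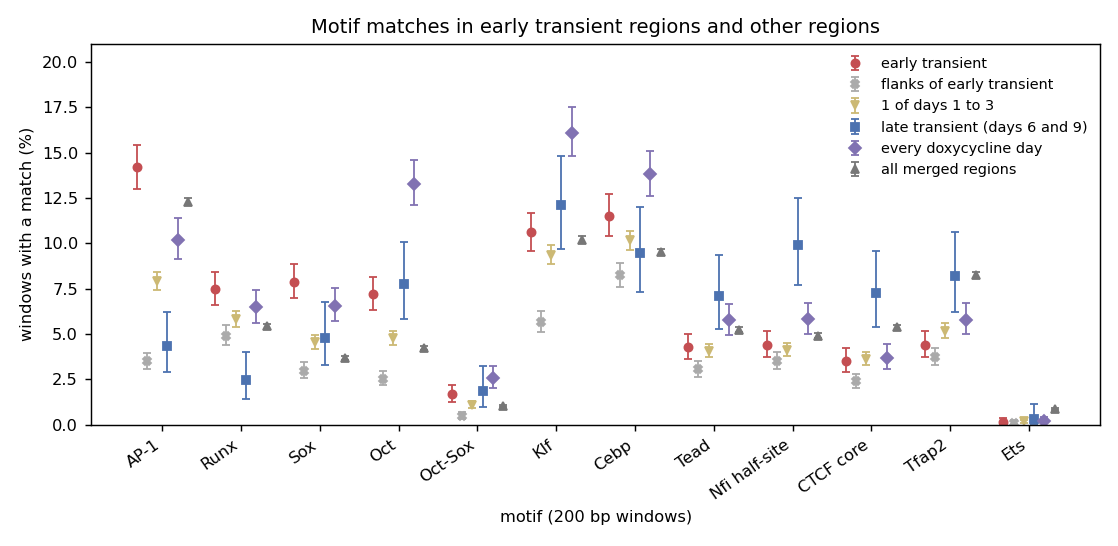
Share of 200 bp windows with a motif match (y axis, percent) for 12 of the 16 motifs (x axis), with exact 95% intervals (bars), in early transient regions, their flanks, regions of 1 of days 1 to 3, late transient regions, regions open on each doxycycline day and all merged regions. AP-1 stood at 14.2% in early and 4.33% in late transient regions, and Oct at 7.21% in early transient regions and 13.3% in regions open on each doxycycline day.

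Some motifs varied with the days on which a member was open. The patterns also differed in median width, from 341 bp for days 2 and 3 to 549 bp for all 3 days. This was not taken into account. AP-1 was found in 19.2% (16.5 to 22.1) of members of all 3 days, 14.8% (13.0 to 16.7) of those of days 1 and 3, 9.95% (7.20 to 13.3) of those of days 2 and 3 and 8.13% (5.94 to 10.8) of those of days 1 and 2. The Runx share was 10.7% (8.66 to 13.1) in members of all 3 days and 6.72% (4.47 to 9.62) in those of days 2 and 3, with overlapping intervals. It was 6.66% (5.44 to 8.07) in members of days 1 and 3 and 5.29% (3.55 to 7.56) in those of days 1 and 2. Sox lay between 6.62% (4.65 to 9.08) and 9.71% (7.75 to 12.0), with overlapping intervals in all 4 patterns. Tead was more frequent in members of days 1 and 3 (5.43%, 4.32 to 6.72) and of days 2 and 3 (5.97%, 3.86 to 8.75) than in those of days 1 and 2 (2.08%, 1.04 to 3.69) or of all 3 days (2.74%, 1.72 to 4.12).

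A few genes had several members around them. Adam12, which encodes a metalloprotease of mesenchymal cells, was the nearest protein-coding gene of 8 members, out of 36 regions assigned to it in the same way, and 7 of the 8 were inside the gene. All 8 had a peak on day 1, 6 on day 3 and 3 on day 2. Those at chr7:134009059-134009333 and chr7:134009373-134009651, both with peaks on days 1 and 2, lie less than 300 bp apart. Merging within 300 bp would join them. Zfhx3, a large zinc finger and homeobox factor, followed with 7 of 70 regions, each with a peak on day 2, and 4 of them were open on all 3 days. Trps1, a GATA-type repressor of skeletal and hair development, had 6 of 39, none of them inside the gene and the nearest 174892 bp from its TSS. Frmd4a, a scaffold protein of cell polarity, had 6 of 45, and Ppargc1a, a coactivator of mitochondrial genes, 6 of 27. Marcks, a substrate of protein kinase C, had 5 of 38, Inhba, the activin subunit gene, 5 of 57, the zinc finger gene Zfp521 5 of 43, Hdac4 4 of 39 and Ap3b1, an adaptor subunit of vesicle transport, 4 of 19. These are the extremes of a wide distribution, since 2549 genes were nearest to at least 1 member, 2067 of them to exactly 1.

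A member lay within 50 kb of a TSS of 3233 of 21842 protein-coding genes, 14.8%. Distance alone does not tell which gene a region acts on. Against that background, 5 of the 9 regulators of the 9TR network, a set of regulators that the study follows in reprogramming cells, had a member within 50 kb (55.6%, 21.2 to 86.3), as had 7 of 20 AP-1 and immediate-early genes (35.0%, 15.4 to 59.2). The intervals of the other lists included 14.8%, with 6 of 17 stratified epithelial, 10 of 37 epithelial, 9 of 35 mesenchymal, 6 of 28 pluripotency, 7 of 42 Wnt, BMP and FGF signalling and 3 of 44 genes for transcription factors of other lineages. Genes differ in how many regions surround them, and the members' share of all regions within 50 kb was 2.70% (2.58 to 2.83) for all protein-coding genes. It was 4.90% (1.61 to 11.1) for the 9TR regulators and 3.12% (1.36 to 6.06) for the AP-1 and immediate-early genes, and the intervals of all 10 lists included 2.70%. Members were thus not shown to favour any of these lists once the number of open regions around the genes was taken into account.

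**Figure D5:**
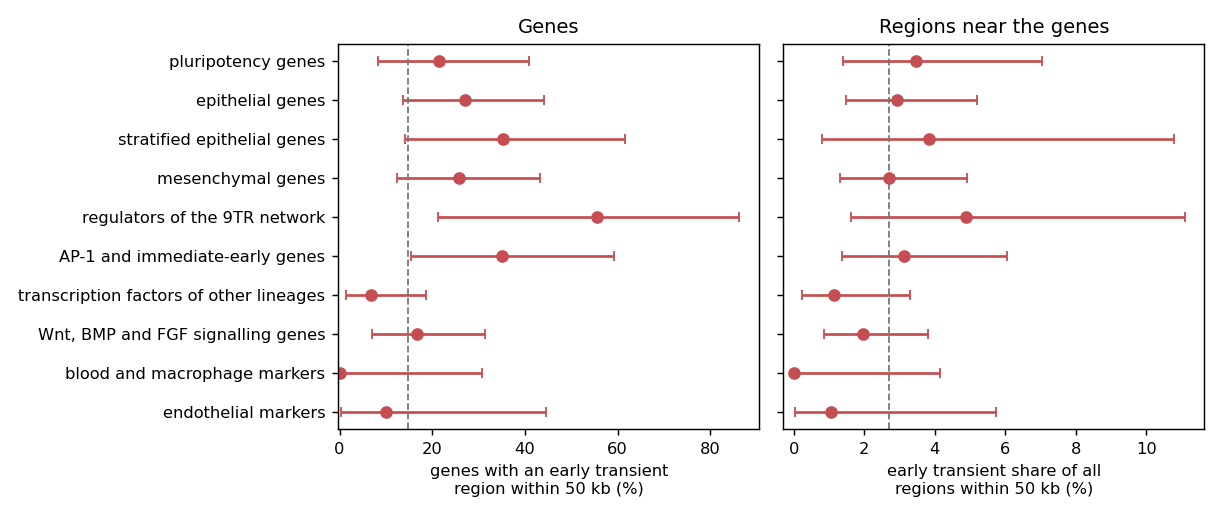
Left, share of the genes of each list with an early transient region within 50 kb of a TSS (percent), and right, early transient regions as a share of all merged regions within 50 kb of those genes (percent), with exact 95% intervals (bars). Dashed lines give the values for all protein-coding genes, 14.8% and 2.70%. The intervals of the 9TR regulators and of the AP-1 and immediate-early genes lie above the line on the left, and all 10 intervals include it on the right.

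Among the regulators of the 9TR network, Cbfa2t3, a corepressor of the ETO family, had a 501 bp member over a TSS (chr8:122678548-122679048), with a 436 bp peak on day 1 and a 200 bp peak on day 3. Rcan1, an inhibitor of calcineurin, had a 256 bp member 370 bp from a TSS on days 2 and 3. The intron of Ovol1, a zinc finger repressor of mesenchymal genes, held an 845 bp member 5883 bp from the TSS (chr19:5552676-5553520), whose peaks were 208 bp, 463 bp and 671 bp wide on days 1, 2 and 3. Tead4 had a 209 bp member 7471 bp away with peaks of 200 bp and 205 bp on days 1 and 3. The Ovol1 region was the only one of the 4 open on all 3 days, and the Rcan1 and Tead4 regions were close to the 200 bp of the narrowest peaks listed.

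Near pluripotency genes, Dppa5a, a gene of early embryonic cells, had a member 601 bp from its TSS with peaks of 200 bp, 200 bp and 415 bp on days 1, 2 and 3. Tfcp2l1, a regulator of naive pluripotency, had a 543 bp member 1976 bp upstream of its TSS on days 2 and 3. The members closest to Fgf4, a growth factor gene of ESCs, and Lefty1, a Nodal inhibitor, lay 8123 bp and 23687 bp away and were each on days 1 and 3. The region of Fgf4 was 191 bp from the TSS of the neighbouring Fgf3, and that of Lefty1 was inside Tmem63a, whose TSS was closer, at 12747 bp.

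Epithelial genes with a close member included Itgb4 and Itga6, which form the hemidesmosomal integrin, at 3288 bp and 5155 bp, Ovol1, and Rab25, a trafficking GTPase, at 6796 bp in an exon of Mex3a. Of the stratified epithelial genes, Sprr1a, a component of the cornified envelope, had a member over its TSS, with a 424 bp peak on day 1 and a 228 bp peak on day 3, and the nearest peak of the 4 other libraries was 24776 bp away. The members of the keratin genes were fewer than the genes, since 1 region of 294 bp was within 50 kb of both Krt15 and Krt14 and 1 of 204 bp of both Krt17 and Krt16. The 6 genes of that list thus shared 3 regions.

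The members near mesenchymal genes varied in width, from 214 bp to 676 bp, and in days. Some had peaks on all 3 days, as 25.2% of all members did, and others lacked a day 2 peak. A 593 bp member covered a TSS of Cdh2, the N-cadherin gene, with peaks of 301 bp, 496 bp and 575 bp on days 1, 2 and 3, and held AP-1, Cebp and Oct matches. Tcf4, an E protein that acts in the mesenchymal transition, had 2 members in its introns, of which one was 676 bp wide. Zeb1, a repressor of epithelial genes, had a 442 bp member 4788 bp from its TSS. Tgfbr1, the type I receptor of TGF-beta, had a 420 bp member in an intron on days 1 and 3.

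Of the AP-1 and immediate-early genes, the zinc finger gene Egr2 had a 262 bp member at 4089 bp, Mafk, which encodes a small Maf protein, had 2, the closest at 6366 bp, and Klf6 and Atf3 had theirs at 25237 bp and 28737 bp. The Klf6 and Atf3 regions each held AP-1 and Sox matches. The 200 bp windows of these members and of the Sprr1a region were chosen for printing after their values were seen, to show AP-1 matches beside genes of the lists, with the matches to Klf, Sox and AP-1 in capitals, 5′ to 3′ on the plus strand of mm10.
Atf3, intergenic, chr1:191246938-191247137: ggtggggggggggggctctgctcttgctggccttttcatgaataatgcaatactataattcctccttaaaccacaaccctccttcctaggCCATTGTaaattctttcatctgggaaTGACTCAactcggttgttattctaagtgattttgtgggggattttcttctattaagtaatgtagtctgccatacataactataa
Klf6, 25237 bp from its TSS, chr13:5886923-5887122: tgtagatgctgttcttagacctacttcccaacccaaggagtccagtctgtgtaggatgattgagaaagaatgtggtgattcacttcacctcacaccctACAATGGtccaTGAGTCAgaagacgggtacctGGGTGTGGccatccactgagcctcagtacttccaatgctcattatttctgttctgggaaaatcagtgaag
Sprr1a promoter, chr3:92485943-92486142: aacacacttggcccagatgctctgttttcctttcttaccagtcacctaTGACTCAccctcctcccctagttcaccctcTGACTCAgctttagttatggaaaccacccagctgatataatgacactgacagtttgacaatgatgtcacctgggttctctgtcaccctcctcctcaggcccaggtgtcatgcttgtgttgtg

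The Atf3 region, upstream of a stress-induced partner of Jun proteins, had peaks of 525 bp, 200 bp and 279 bp on days 1, 2 and 3. Its Sox match (CCATTGT, bases 91 to 97) stands before its AP-1 match (TGACTCA, bases 117 to 123). The Klf6 region, with peaks of 456 bp and 476 bp on days 1 and 3, held a Sox match (bases 99 to 105), an AP-1 match (bases 110 to 116) and a Klf match (bases 131 to 138) in that order. The Sprr1a window held 2 AP-1 matches, at bases 49 to 55 and 79 to 85.

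Of the genes for transcription factors of other lineages, Eomes, Ascl2 and Gata1 had a member within 50 kb, at 28069 bp, 34717 bp and 42194 bp, and each region was closer to the TSS of another gene. Among signalling genes, the Wnt receptor gene Fzd7 had a 522 bp member 9685 bp upstream, Bmpr1a, a BMP receptor gene, had 2, and Fgfr1 and Fgf2 had members at 13569 bp and 15162 bp. No blood or macrophage marker of 10 and 1 endothelial marker of 10, Emcn, had a member within 50 kb.

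The labelled cell types were compared with the peaks at marker genes. A peak within 1000 bp of a TSS was found for 32 of 35 mesenchymal genes on day 0, for 27, 21 and 29 on days 1, 2 and 3, for 27 and 25 on days 6 and 9 and for 13 in the ESC library. Epithelial genes had one for 13 of 37 on day 0 and for 11, 10 and 13 on days 1, 2 and 3. On days 6 and 9 these were 16 and 17, and in the ESC library 16. The number of epithelial genes with a TSS peak was thus above that of day 0 only from day 6 on. Of 28 pluripotency genes, 10 had one in ESCs, 13 on day 0 and 14 on day 3, so peaks at these TSSs did not separate the ESCs from the MEFs. Of 10 blood and macrophage markers, 7 had a TSS peak on day 0, 4 on day 1 and 1 or 2 at each later time-point and in ESCs, and of 10 endothelial markers 6 had one on day 0 and 3 or 4 in each other library. The day 0 list is also the longest, with 61241 peaks against 27074 in the ESC list. Peaks at blood and endothelial markers were thus most frequent in the longest list, and its part in the early transient regions was not tested.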

How the data were processed

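ATAC-seq was analysed in 7 mouse libraries, 1 per time-point, grouped by the time-point in their labels. The authors used Trimmomatic for trimming, Bowtie2 for alignment to mm10 and Picard to mark duplicates, downsampled all samples to a common depth that the sources used here do not give, and called peaks per library with MACS2. The sign of the MACS2 shift is not given in the sources used here, so how far a called peak lies from the Tn5 cut sites, and hence what the centre of a region marks, is unknown. The deposited lists hold the start and end of each peak (mm10) with no score, signal or q-value, so the reads behind a peak and the read depth are unknown.

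Touching or overlapping peaks of the 7 lists were merged, checked against BEDTools 2.31.1, and the rule was applied with Python 3.11.15 and numpy 2.4.6. On simulated lists with 263 planted members, 100% were found. Distances are from the region's edge to the nearest TSS of GENCODE M21. Motifs were searched on both strands in 200 bp at the region's centre in GRCm38, and flanks are the windows 1000 bp to either side. Of the members, 1 lies outside chromosomes 1 to 19, X and Y and has neither sequence nor TSS distance. Intervals are Clopper-Pearson (scipy 1.17.1), and regions are not replicates.

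The members and lists were chosen with earlier results of these data known. Named were the 10 widest members of all 3 days, the 10 genes with the most members nearest (ties by total width), up to 4 genes per list by distance, and for sequences the 5 members of all 3 days with the most different motifs (ties by width, chromosome 18 left out), of which 1 is not reported here. The 10 gene lists hold textbook genes and the regulators the study names. Alternatives changed the peak width, the number of peaks, the merging, the days required, the other libraries' distance, the chromosomes, the motif window and the distances to TSSs. A comparison of early and late transient regions in AP-1 under 5 of these was added after the data were seen.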

Additional observations from a re-analysis of the deposited data

How the results depend on the processing

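Each of the 8 main values was recomputed under its alternatives. Of 85 alternative values, 45 stayed within the counting interval of the main value or, for numbers of regions and genes, within 1.5 times of it, and 40 moved.

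With peaks at least 300 bp wide in every library, merged anew, 2115 regions met the rule. Their median width was 556 bp, with 10.7% near a TSS, 13.2% with Klf and 19.6% with AP-1. With the same number of widest peaks per library the median width was 541 bp and the AP-1 share 22.0%. These 2 settings also drop peaks of the other 4 libraries. Regions with such dropped peaks could then become members, so these sets are not simply parts of the main set. Merging within 300 bp gave 492 bp, 8.29% near a TSS, 12.0% Klf and 15.9% AP-1. Without a peak of the other 4 libraries within 500 bp, the width was 462 bp and 7.74% were near a TSS. Requiring all of days 1, 2 and 3 left 803 regions of 549 bp near 798 genes, with 8.34% near a TSS, 9.46% Klf, 9.71% Sox, 2.62% Oct-Sox and 19.2% AP-1.

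With one early library left out, the rule required a peak on every remaining early day, so a lower number was largely set in advance. Without day 3, 1339 regions of 454 bp near 1413 genes were found, without day 1, 1209 regions of 425 bp near 1306 genes, and without day 2, 2264 regions with 15.6% AP-1. The 400 bp window gave 18.7% Klf, 12.3% Sox, 2.85% Oct-Sox and 23.0% AP-1, and the window at the centre of the shared stretch 6.83% Sox, 1.16% Oct-Sox and 10.4% AP-1. The TSS share was 6.43% within 500 bp, 15.0% within 2000 bp and 4.51% for TSSs of protein-coding genes, and 1523 genes had a member within 20 kb and 5672 within 100 kb. Apart from the lower number under the stricter rule, the cause of these changes was not tested. AP-1 was 3.05 to 4.70 times as frequent in early as in late transient regions over the 5 alternatives tried.

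A stricter q-value could not be applied, since the lists hold no score. No paired analysis was possible because no time-point has a second library. The unknown depth limits each absence of a peak, since a weak peak and none cannot be told apart.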
